A study of Homo sapiens and Mus musculus with 13 samples.

Results

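R-loop peaks in the replication-dependent histone gene clusters were examined in human NT2 and K562 cells. The clusters were taken as 3 windows of the hg19 genome: chromosome 6 from 26000001 to 26300000 (300 kb, called the 26 Mb cluster), chromosome 6 from 27750001 to 27880000 (130 kb, the 27 Mb cluster) and chromosome 1 from 149750001 to 149880000 (130 kb). The first pair holds HIST1 genes and the last holds HIST2 genes. A peak was counted where it touched a window by at least 1 bp, which gave 166 of the 325035 peaks in the 6 human lists. The 500 kb on each side of every window served as flanks and held 613 peaks.

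RNA:DNA hybrids are the paired strands of an R-loop, in which a transcript stays annealed to its template and displaces the other DNA strand. DRIP-seq recovers restriction-cut genomic DNA with an antibody to hybrids and reads the DNA without strand, and DRIPc-seq reads the RNA strand of the hybrids, so that each of its peaks has a strand. NT2 cells are a pluripotent line from a human testicular embryonal carcinoma. K562 cells come from an erythromyeloid leukaemia. The labels name no transgene or treatment of the living cells for either. The NT2 lists were DRIP-seq without RNase after digest A (HindIII, EcoRI, BsrGI, XbaI and SspI), DRIP-seq after digest B (BamHI, NcoI, ApaL1, NheI and PvuII), DRIP-seq with RNase A, DRIP-seq with RNase H, and DRIPc-seq. The K562 list was DRIP-seq; digest A was used for every list but digest B. RNase H destroys RNA that is paired with DNA, so a library treated with it serves as a negative control, while RNase A digests mainly unpaired RNA. Each list came from 1 sample, except that NT2 DRIPc-seq has 1 list for 2 samples, so nothing below could be checked against a replicate. Positions are all that the lists give, and the depth of the libraries is unknown.

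Replication-dependent histone genes encode the core histones H2A, H2B, H3 and H4, which form the nucleosome, and the linker histone H1, which binds the DNA between nucleosomes. They are short, mostly lack introns, are transcribed mainly in S phase, and end in a stem-loop in place of a poly(A) tail. Many of their copies are nearly identical, so reads from them can be hard to place, and the treatment of such reads is unstated in the sources used here. In RefSeq (GRCh38.p14) 66 protein-coding genes of these families form 5 groups on chromosomes 1 and 6. The group from H1-1 to H4C8 on chromosome 6 has 32 genes: 5 of H1, 4 of H2A, 8 of H2B, 7 of H3 and 8 of H4. The group from H2BC13 to H2BC17 on chromosome 6 has 16 genes, and the chromosome 1 group from H2BC18 to H2AC21 has 11. Median gene lengths were 495 bp, 484 bp and 522 bp, so a typical peak described below was longer than a gene. These tables are on another build than the peaks and were used for names, order and sequences only. Peaks were therefore not assigned to single histone genes, and the flanks were not checked for such genes. The groups H2AC1 to H2BC1 and H2BC11 to H2AC12, also on chromosome 6, were not placed relative to the flanks.

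The promoters show what the gene families in these windows share in sequence. The 250 bases before the start of 1 gene per family, from the group H1-1 to H4C8 and written 5′ to 3′ on the strand of the gene, are given from RefSeq (GRCh38.p14); all lie on chromosome 6, H3C1 on the plus strand and the other genes on the minus strand. Capitals mark matches on either strand to the letters CCAAT, the core of the box bound by NF-Y, and to the letters TATAAA, a form of the TATA box; the motifs share no matched base in these stretches.
H1-1: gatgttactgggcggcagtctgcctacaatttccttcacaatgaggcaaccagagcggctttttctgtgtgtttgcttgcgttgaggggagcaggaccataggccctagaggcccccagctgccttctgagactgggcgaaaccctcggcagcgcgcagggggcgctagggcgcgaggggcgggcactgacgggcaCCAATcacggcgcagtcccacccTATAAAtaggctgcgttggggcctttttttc
H2AC4: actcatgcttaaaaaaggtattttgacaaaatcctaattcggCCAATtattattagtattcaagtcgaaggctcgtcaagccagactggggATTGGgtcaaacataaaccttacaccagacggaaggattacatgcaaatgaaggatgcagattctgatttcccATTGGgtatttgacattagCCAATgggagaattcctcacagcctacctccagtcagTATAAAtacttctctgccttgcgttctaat
H2BC3: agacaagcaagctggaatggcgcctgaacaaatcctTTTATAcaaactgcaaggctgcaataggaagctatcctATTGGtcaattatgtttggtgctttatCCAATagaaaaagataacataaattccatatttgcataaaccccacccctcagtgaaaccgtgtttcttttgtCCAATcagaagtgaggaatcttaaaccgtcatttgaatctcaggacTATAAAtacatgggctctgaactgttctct
H3C1: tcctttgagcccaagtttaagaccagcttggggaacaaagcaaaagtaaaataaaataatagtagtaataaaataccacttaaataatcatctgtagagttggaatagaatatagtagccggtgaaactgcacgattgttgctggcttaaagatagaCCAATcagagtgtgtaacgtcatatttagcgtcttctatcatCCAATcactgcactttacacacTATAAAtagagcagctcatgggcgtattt
H4C2: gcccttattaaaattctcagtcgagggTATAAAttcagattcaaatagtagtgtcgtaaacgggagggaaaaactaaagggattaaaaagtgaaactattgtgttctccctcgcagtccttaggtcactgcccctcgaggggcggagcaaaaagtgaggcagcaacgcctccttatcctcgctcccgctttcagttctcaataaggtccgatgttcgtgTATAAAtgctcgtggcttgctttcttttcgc
The H2AC4 stretch held 4 CCAAT matches and that of H2BC3 held 3, whereas H4C2 held none. Over windows of 300 bases (250 before and 50 after the start), 55 of the 59 genes of the 3 groups had an entry. CCAAT occurred on either strand in 46 of them (83.6%), against 35.7% of all 27305 promoters in the table. It was found in every H1, H2A, H2B and H3 promoter matched and in 2 of 11 H4 promoters (18.2%). TATAAA occurred in 36 (65.5%), against 12% of all promoters. The histone promoters had a median GC content of 42.3%, below the 58.3% of all promoters. Their median GC skew, the excess of G over C on the gene's strand as a fraction of both, was 0.0167 beside 0.00498. The chromosome 1 group stood higher than the chromosome 6 groups on both measures, with a median GC content of 53% and a skew of 0.145. These matches are descriptions of letters, and no peak was tied to a promoter.

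K562 held more R-loop peaks in the chromosome 6 clusters than any NT2 list. In the 26 Mb cluster K562 had 28 peaks, digest A 9, digest B 6, RNase A 11, DRIPc-seq 5 and RNase H 0. The K562 peaks covered 17.6% of this window, while NT2 cover was 4.80% in digest A, 7.08% in digest B, 5.90% with RNase A and 2.74% in DRIPc-seq. The 27 Mb cluster had 18 K562 peaks, 7 of digest A, 3 of digest B, 7 of RNase A, 3 of DRIPc-seq and 0 of RNase H. Here K562 peaks covered 20.5%, with 7.83% in digest A, 7.70% in digest B, 10.5% with RNase A and 2.94% in DRIPc-seq. K562 thus lay above every NT2 list in both windows, and the spread among the 3 NT2 DRIP-seq lists without RNase H was smaller than the distance from them to K562. That spread includes differences of enzyme and RNase as well as of library. K562 and NT2 have 1 library each for every condition, so a difference between the cell lines cannot be told apart from one between libraries.

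**Figure D1:**
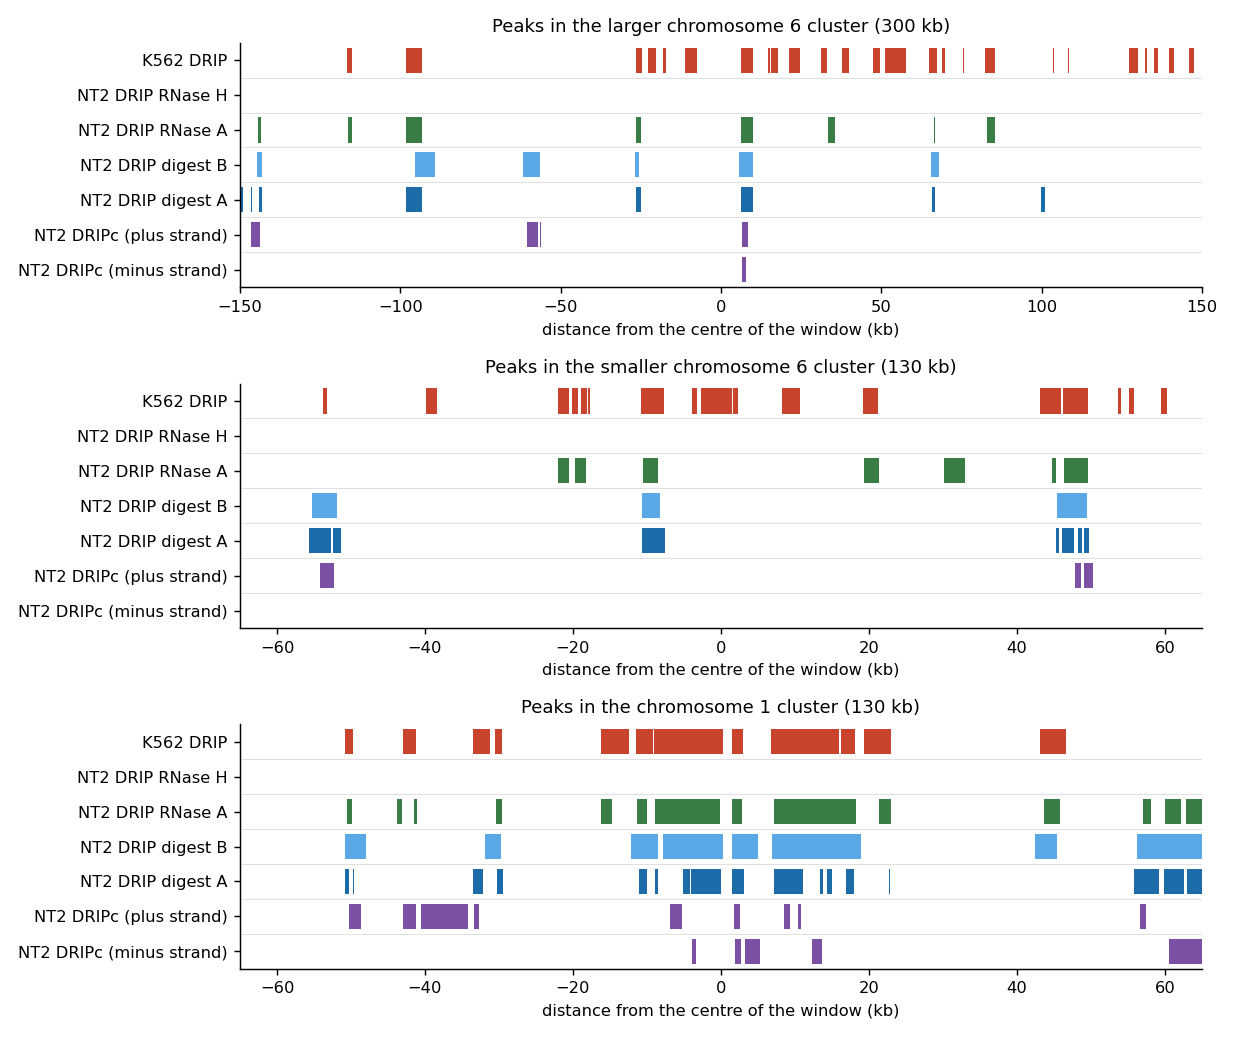
Peaks of each list (rows, coloured bars) by distance from the centre of each window in kb; DRIPc-seq is split by strand. The right part of the larger chromosome 6 cluster holds 21 K562 peaks among few NT2 peaks, the chromosome 1 cluster holds long blocks in several lists, and the RNase H row is empty in all 3 windows.

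The K562 excess over digest A in the chromosome 6 clusters was not seen in their flanks. K562 cover was 3.66 times digest A cover in the 26 Mb cluster and 2.62 times in the 27 Mb cluster. In the flanks the same ratio was 0.964 and 1.03, and over the whole lists it was 0.873. Over both chromosome 6 clusters the ratio was 3.23 against digest A, 2.54 against digest B, 2.54 against RNase A and 6.59 against DRIPc-seq. In the chromosome 6 flanks these ratios were 1.00, 0.660, 2.08 and 0.538. The RNase A list was thus low beside K562 in the flanks as well, and its ratio changed least between cluster and flanks. When all 4 NT2 lists with peaks were joined, NT2 cover rose to 11.5% and 16.0% of the windows, and the ratio over both was 1.43; the like ratio in the flanks was 0.411. This ratio was chosen after the cover values had been seen.

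Windows of the same size elsewhere gave the background for the ratio. Of 4503 tiles of 300 kb with at least 1% digest A cover, 236 (5.24%) had K562 cover at least 2 times digest A cover, and the median tile had a ratio of 0.665. The value of the 26 Mb cluster was reached by 54 tiles (1.2%), and on chromosome 6 by 5 of 262. Of 8432 tiles of 130 kb, 531 (6.30%) reached 2-fold. The 27 Mb cluster's ratio was reached by 300 of them (3.56%) and the chromosome 1 cluster's by 815 (9.67%). Ratios as high as those of the histone clusters therefore occurred elsewhere in the genome too.

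**Figure D2:**
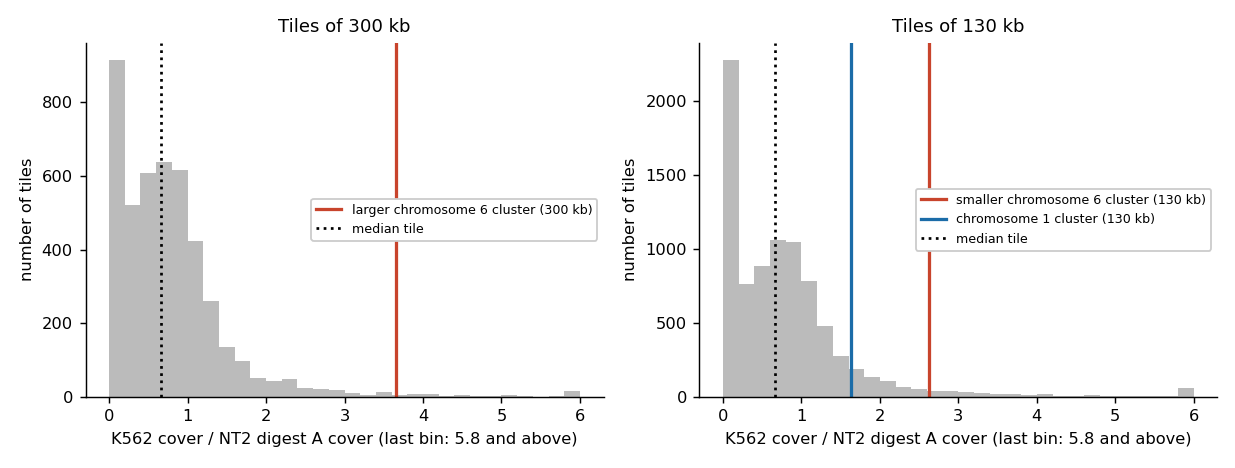
Number of genome tiles (y axis) by the ratio of K562 to NT2 digest A cover (x axis, no unit), for tiles of 300 kb and 130 kb with at least 1% digest A cover. The median tile (dotted) lies at 0.665 and 0.658, and the clusters (solid lines) at 3.66, 2.62 and 1.63.

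Within the 26 Mb cluster the K562 excess was uneven. In the first 150 kb, K562 had 7 peaks and a ratio to digest A of 1.86. In the second 150 kb it had 21 peaks, which covered 24.8% of the sequence, beside 4% in digest A, 4.6% in digest B, 6.04% with RNase A and 1.25% in DRIPc-seq. The ratio to digest A was 6.18 there, and 2.85 to the joined NT2 lists. This split was made after the values were seen. K562 peaks stood close together in this cluster, with a median of 6.14 kb between the midpoints of neighbours, whereas the medians of the NT2 lists were 33.8 kb in digest A, 34.0 kb in digest B, 27.3 kb with RNase A and 33 kb in DRIPc-seq. The other clusters showed this order only in part. At 27 Mb the median was 4.32 kb in K562 and 1.97 kb in digest A. It was wider there in digest B (50.5 kb), with RNase A (10.3 kb) and in DRIPc-seq (51.5 kb). On chromosome 1 it was 6.62 kb in K562 and 14.1 kb in digest B. Digest A (3.78 kb), RNase A (5.53 kb) and DRIPc-seq (4.63 kb) were closer together than K562 there.

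The chromosome 1 cluster was densely covered in NT2 and K562 alike. How reads from near-identical copies were placed here was not tested. The cover, sharing and strand counts of this cluster carry that limit. NT2 peaks covered 19.4% in digest A, 33.8% in digest B, 27.5% with RNase A and 17.8% in DRIPc-seq, and K562 peaks covered 31.7%. K562 was thus inside the NT2 range, with 12 peaks against 18 in digest A, 9 in digest B, 16 with RNase A and 14 in DRIPc-seq. Of the NT2 lists only digest B lay above K562 in cover. Its peak from 149871234 to 149890305 crossed the end of the window, in a region without a K562 peak. The place of K562 in the range of cover thus depends on where the window ends. The joined NT2 lists covered 45.8% of this window. Digest A, digest B, RNase A and K562 covered more of the cluster than of its flanks, where cover was 11.0% in digest A, 17.4% in digest B, 11.7% with RNase A and 6.78% in K562. DRIPc-seq had 17.8% in the cluster and 17.7% beside it. K562 cover of this cluster was 4.67 times that of its flanks, a larger step than at 26 Mb (2.94 times) and 27 Mb (2.58 times). A step was not particular to K562: the RNase A list had 2.35 times here, 2.47 at 26 Mb and 2.44 at 27 Mb. Digest A, digest B and DRIPc-seq had at most 1.01 times in the chromosome 6 clusters. The ratio of K562 to digest A was 1.63 in the chromosome 1 cluster and 0.616 in its flanks. K562 thus gained on digest A here too, from a lower start.

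**Figure D3:**
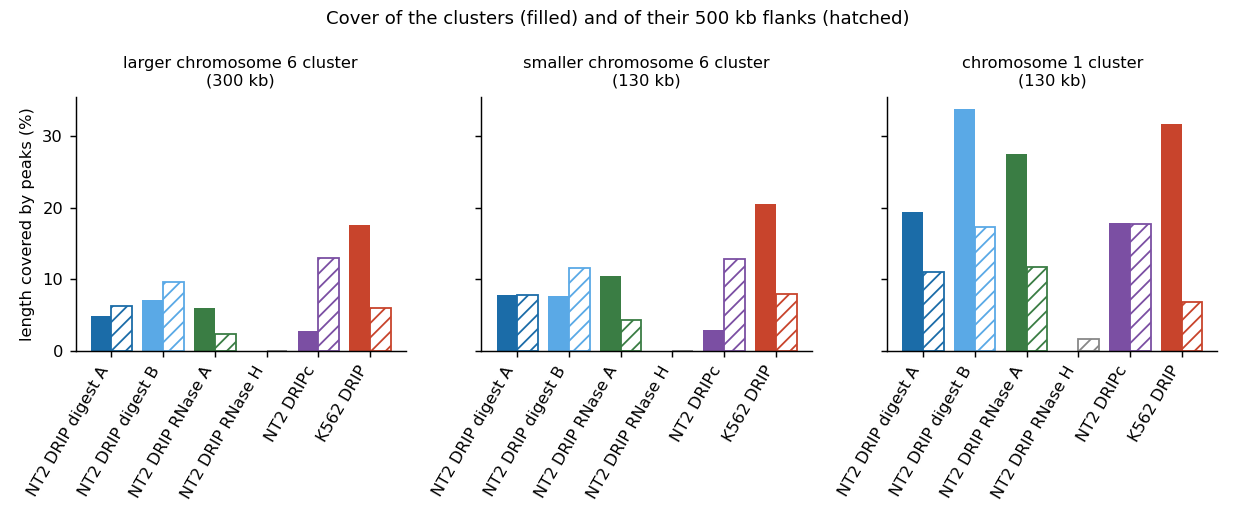
Share of the window length covered by peaks (y axis, %) for each list in the 3 clusters (filled bars) and their flanks (hatched bars); each bar is 1 list, so there are no error bars. K562 stands above all NT2 lists in the chromosome 6 clusters (17.6% and 20.5%), and DRIPc-seq cover there is lower than in the flanks (2.74% against 13.0%, and 2.94% against 12.8%).

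Taken over all 560 kb, the clusters and the 3000 kb of flanks were covered almost equally in NT2 digest A, at 8.90% and 8.31%. Digest B gave 13.4% and 12.8%. The balance rested on the chromosome 1 cluster: without it, cover of the clusters minus that of the flanks was -1.24 percentage points in digest A and -3.28 in digest B. With RNase A the clusters had 12% and the flanks 6.13%. K562 had 21.5% and 6.90%. DRIPc-seq went the other way, with 6.29% in the clusters and 14.5% in the flanks. The sides of a cluster were unlike each other. For digest A, the left and right flanks had 1.59% and 10.8% at the 26 Mb cluster, 2.56% and 12.9% at the 27 Mb cluster, and 1.56% and 20.5% on chromosome 1. Each cluster thus lay between a sparsely and a densely covered neighbourhood.

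Same-size tiles put these levels in the genome. Cover as high as that of the 26 Mb cluster was reached by 6.37% of 10296 tiles in K562, 23.7% in digest A, 28.8% in digest B, 21.4% with RNase A and 54.0% in DRIPc-seq. For the 27 Mb cluster the shares of 23785 tiles were 5.62% in K562, 16.2% in digest A, 25.0% in digest B, 13.7% with RNase A and 44.8% in DRIPc-seq. For the chromosome 1 cluster they were 3.23% in K562, 7.08% in digest A, 4.64% in digest B, 5.24% with RNase A and 15.1% in DRIPc-seq. In each cluster K562 was the list whose cover was reached by the fewest tiles. This ranking was not adjusted for the cover of the whole lists. Among the lists compared here it was smallest in K562, at 118393 kb, with 135685 kb in digest A.

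No RNase H peak touched any cluster. The chromosome 6 flanks also held 0, and the flanks on chromosome 1 held 3 on the left and 8 on the right. An empty window was common for this list: the median tile had an RNase H cover of 0 at both tile sizes. None of the 34 digest A peaks of the clusters was found in the RNase H list, which allows a share of up to 8.82%, and 5.09% of all digest A peaks were found there. In the flanks it was 3 of 127 (2.36%). None of the 58 K562 peaks touched an RNase H peak, which allows up to 5.17% and has an exact Clopper-Pearson 95% upper bound of 6.16%; over all K562 peaks the share was 5.86%, between these limits, and in the flanks it was 3 of 130 (2.31%). For digest A the genome's share lies inside what a count of 0 allows. The RNase H library came from NT2 cells and K562 had none. The K562 shares therefore do not show how K562 peaks respond to RNase H.

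For digest B, RNase A and DRIPc-seq, the share over the whole list lay inside the interval of the share in the clusters. Of the 34 digest A peaks, 29 touched a digest B peak (85.3%, exact Clopper-Pearson 95% interval 68.9 to 95%), with 84.3% in the flanks and 76.8% over the whole list. The intervals reflect counting error alone, and neighbouring peaks are not independent. With RNase A, 26 were found (76.5%, 58.8 to 89.3%), beside 60.6% in the flanks and 65.5% over the whole list. DRIPc-seq held 17 of them (50%, 32.4 to 67.6%), beside 71.7% (63.0 to 79.3%) in the flanks and 61.4% overall. In K562, which is not an NT2 list, 25 were found (73.5%, 55.6 to 87.1%), with 62.2% in the flanks. Over the whole list the share in K562 was 54.7%, just below this interval. Of these 4 lists, DRIPc-seq was the one whose share in the clusters lay below that in the flanks, and the 2 intervals overlapped. The clusters differed in this. DRIPc-seq held 43.8% of digest A peaks in the chromosome 6 clusters (flanks 78.4%) and 55.6% on chromosome 1 (flanks 62.3%). The K562 share was 68.8% in the chromosome 6 clusters (flanks 68.9%) and 77.8% on chromosome 1 (flanks 52.8%). A core of 7 digest A peaks (20.6%, 8.70 to 37.9%) was found in every list but RNase H, beside 37.8% in the flanks and 30.2% of the whole list, and 2 were in no other list.

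Read from K562, sharing was lower in the chromosome 6 clusters than in their flanks. Of 46 K562 peaks there, 9 touched a digest A peak (19.6%, 9.36 to 33.9%). In the chromosome 6 flanks it was 59 of 83 (71.1%, 60.1 to 80.5%), and over the whole list 67.3%. Any NT2 peak was touched by 15 of the 46 (32.6%, 19.5 to 48.0%), against 68 of 83 in the flanks (81.9%, 72 to 89.5%) and 81.3% overall. These pooled intervals did not overlap, and neither did those of the 26 Mb cluster alone, with 7 of 28 (25%, 10.7 to 44.9%) against 29 of 32 in its flanks (90.6%, 75 to 98%). Those of the 27 Mb cluster alone did overlap, with 8 of 18 (44.4%, 21.5 to 69.2%) against 39 of 51 (76.5%, 62.5 to 87.2%). Peaks are not replicates, so this comparison of intervals is not a test. The 46 K562 peaks stood beside 16 of digest A, and the 83 in the flanks beside 74. The low share is therefore not separate from the K562 excess described above. RNase A peaks were touched by 14 of 46 (30.4%), beside 51.8% in the flanks and 63.0% of the whole list. DRIPc-seq peaks were touched by 3 (6.52%), against 57 of 83 (68.7%) in the flanks and 50.4% of the whole list. On chromosome 1 all 12 K562 peaks of the cluster touched an NT2 peak (100%, 73.5 to 100%), beside 42 of 47 (89.4%) in its flanks. K562 peaks without an NT2 partner were thus present in the chromosome 6 clusters and absent from the chromosome 1 cluster, where 0 of 12 allows a share of up to 25%.

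Of the 18 RNase A peaks in the chromosome 6 clusters, 14 touched a K562 peak (77.8%, 52.4 to 93.6%), beside 84.2% in the flanks and 52.4% of the whole list. A digest A peak was touched by 8 (44.4%, 21.5 to 69.2%), beside 34 of 38 (89.5%) in the flanks and 65.7% of the whole list. The intervals of the 2 shares in the clusters overlap. DRIPc-seq peaks were touched by 3 of the 18 RNase A peaks (16.7%, 3.58 to 41.4%). In the flanks it was 30 of 38 (78.9%, 62.7 to 90.4%), and over the whole list 53.3%. The low share found in DRIPc-seq was thus not limited to K562 peaks. DRIPc-seq peaks were few but mostly backed by DRIP-seq: 20 of the 22 in all clusters touched a DRIP-seq peak of either digest or of RNase A (90.9%, 70.8 to 98.9%), beside 66.2% in the flanks and 60.8% of the whole list.

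**Figure D4:**
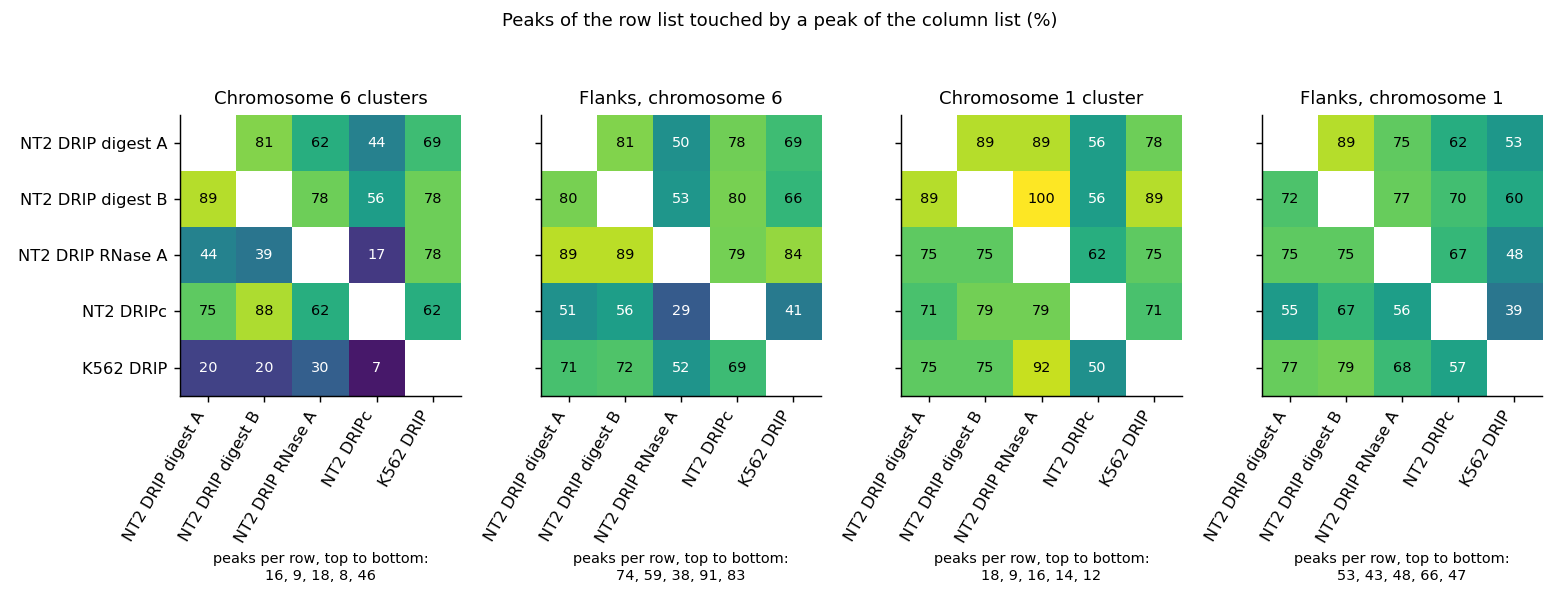
Each cell gives the percent of peaks of the row list touched by a peak of the column list, in the chromosome 6 clusters, their flanks, the chromosome 1 cluster and its flanks; peak numbers stand under each panel. The K562 row is low in the chromosome 6 clusters (19.6% found in digest A, 6.52% in DRIPc-seq) and high in their flanks (71.1% and 68.7%). RNase A peaks found in DRIPc-seq are also fewer in these clusters (16.7%) than in the flanks (78.9%).

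Peaks in the clusters were of ordinary length. Their medians in the clusters, the flanks and the whole list were 1100, 1437 and 1206 bp in digest A. In digest B they were 3184.5, 3369 and 2841 bp. With RNase A they were 1546, 1572.5 and 1727 bp, and in DRIPc-seq 1337.5, 1841 and 1749 bp. Over all clusters together, K562 was the list whose median exceeded both that of the flanks and that of the whole list, with 1670.5, 1159.5 and 1360 bp. The lengths ran from 112 to 5043 bp in digest A, from 1393 to 19072 bp in digest B, from 227 to 5911 bp with RNase A, from 235 to 6396 bp in DRIPc-seq and from 139 to 9275 bp in K562, so the lists overlapped widely. The step was widest in the chromosome 1 cluster, at 2327.5 bp against 926 bp in its flanks. In both chromosome 6 clusters together the K562 median was 1552 bp against 1291 bp. In the 26 and 27 Mb clusters it was 1665.5 and 1184.5 bp, beside 1536.5 and 1150 bp. The RNase A median was also longer in both chromosome 6 clusters together, at 1546 bp against 1464.5 bp in their flanks. The 31 K562 peaks of the chromosome 6 clusters that no NT2 list held had a median of 1448 bp, and the 15 that were shared had 1964 bp. In all flanks, K562 peaks without an NT2 partner were short, with a median of 387 bp beside 1320 bp for shared ones.

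**Figure D5:**
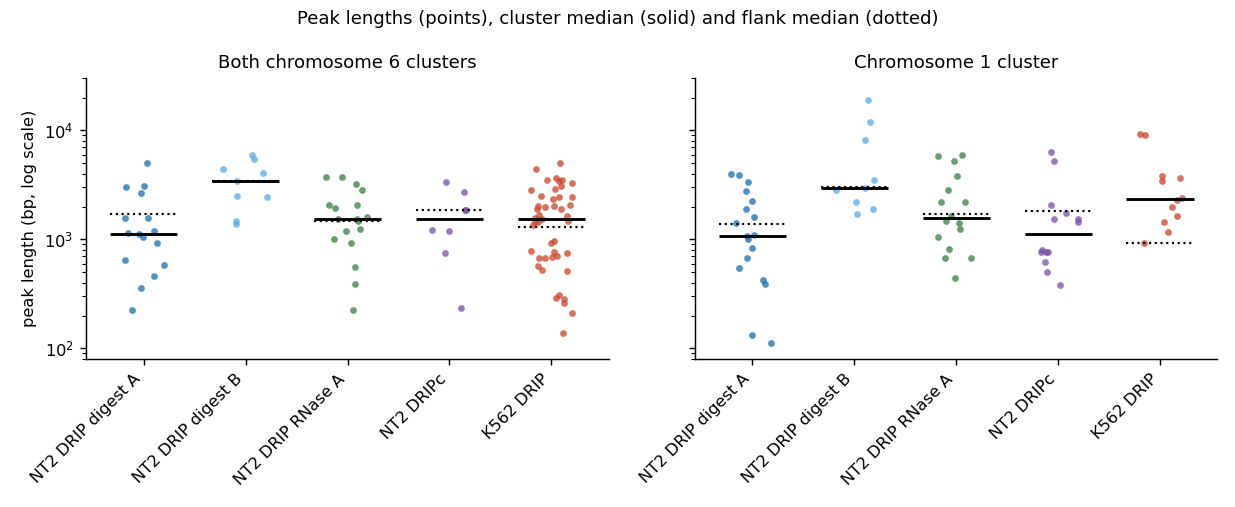
Length of each peak in bp (log axis) by list, for both chromosome 6 clusters together and for the chromosome 1 cluster, with the cluster median (solid line) and the flank median (dotted line). The K562 median in the chromosome 1 cluster is 2327.5 bp against 926 bp in the flanks, and the points of the lists overlap.

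Merging overlapping peaks of all lists gave 62 regions, 34 in the 26 Mb cluster, 16 in the 27 Mb cluster and 12 on chromosome 1. Of these, 38 were held by 1 list and 14 by at least 4 lists. None could be held by all 6, because RNase H had no peak in the clusters. K562 alone held 30 regions, 21 and 9 in the chromosome 6 clusters and 0 on chromosome 1. They had a median length of 1400.5 bp and made up 46.4 kb, or 58.4% of the K562 cover of the chromosome 6 clusters. NT2 lists held 11 regions without K562: 7, 1 and 3.

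In the 26 Mb cluster 5 regions were held by at least 4 lists. The longest ran from 26051757 to 26060676 (8.92 kb) and had 5043 bp of digest A, 5997 bp of digest B, 4987 bp of RNase A and 5031 bp of K562 peaks, with none of DRIPc-seq. It is the place in this window where the 2 cell lines had most peak length in common. The region from 26155677 to 26160147 (4.47 kb) was the only one held by 5 lists, and DRIPc-seq had a peak on each strand there. The regions from 26123172 to 26125434 and from 26214921 to 26217896 were held by digest A, digest B, RNase A and K562. That from 26003518 to 26006862 was held by the 4 NT2 lists and not by K562. The longest region of a single list was a K562 peak from 26203144 to 26207580 (4437 bp). It closed a stretch from 26164646 in which 9 K562 regions were interrupted only by 1 RNase A region; this stretch was chosen after its values were seen.

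In the 27 Mb cluster the longest region ran from 27858100 to 27865272 (7.17 kb) and was held by 5 lists: 2971 bp of digest A, 4109 bp of digest B, 3799 bp of RNase A, 1945 bp of DRIPc-seq and 6351 bp of K562 peaks. K562 thus had more peak length there than any NT2 list. The region from 27804237 to 27807421 was held by digest A, digest B, RNase A and K562 with between 2052 and 3095 bp each. The region from 27759303 to 27763710 had 4148 bp of digest A and only 508 bp of K562 peaks, and it lacked RNase A. The longest region of a single list was a pair of adjoining K562 peaks from 27812243 to 27816503 (4261 bp).

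On chromosome 1, 6 of 12 regions were held by at least 4 lists. A dense centre consisted of the regions from 149802818 to 149815274 (12.5 kb), from 149816475 to 149820280 (3.81 kb) and from 149821777 to 149833954 (12.2 kb), each held by 5 lists. In the first of these K562 had 11556 bp, digest B 11686 bp, RNase A 10178 bp, digest A 6463 bp and DRIPc-seq 2049 bp. In the last K562 had 11131 bp, digest B 12028 bp, RNase A 11060 bp, digest A 6084 bp and DRIPc-seq 2595 bp. K562, digest B and RNase A thus each had at least 10178 bp of peaks in both, and digest A and DRIPc-seq had less. K562 peak lengths ran in nearly reverse order, with 2281 and 9275 bp in the first region and 9145 and 1986 bp in the last. In digest A the outer peaks did the same (1090 and 3979 bp, 3907 and 1077 bp), and the middle ones did not. Digest B had a single peak in the last region. Whether reads of near-identical copies were placed in both regions was not tested, so the regions cannot be counted as separate observations. The regions from 149764155 to 149767056 and from 149781432 to 149785508 were also held by 5 lists. The longest region, from 149870801 to 149890305 (19.5 kb), crossed the end of the window and was held by all 4 NT2 lists with between 11841 and 19072 bp, and K562 had no peak there. The longest region of a single list was a plus-strand DRIPc-seq peak from 149774404 to 149780799 (6396 bp).

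DRIPc-seq peaks of the clusters lay on both strands, with more on the plus strand. There were 16 plus and 6 minus peaks (72.7% plus, 49.8 to 89.3%), beside 104 and 53 in the flanks (66.2%, 58.3 to 73.6%) and 52.3% plus over the whole list. Of the covered length, 71.8% was plus in the clusters, 65.9% in the flanks and 52.0% overall. The interval of the clusters includes the share of the whole list. By cluster the peaks were 4 plus and 1 minus at 26 Mb, 3 plus and 0 minus at 27 Mb, and 9 plus and 5 minus on chromosome 1. The flanks themselves differed by side: the left flank had 16 plus and 0 minus peaks at 26 Mb and 22 plus and 2 minus on chromosome 1, where the right flank had 17 plus and 25 minus.

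Among neighbouring DRIPc-seq peaks of a cluster, 10 pairs were on the same strand, 5 went from plus to minus and 4 from minus to plus along the chromosome. Cover on both strands at once amounted to 5.37% of the DRIPc-seq cover of the clusters, 2.63% in the flanks and 3.99% of the whole list. In the 26 Mb cluster it was a single place of 1228 bp, inside the region held by 5 lists.

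Where peaks of 2 lists touched, their ends seldom coincided. Of 50 ends of digest A peaks that touched K562 peaks in the clusters, 9 lay within 50 bp of a like K562 end (18.0%, 8.58 to 31.4%), beside 10.1% in the flanks and 13.4% overall. Between RNase A and K562 it was 11 of 52 (21.2%), beside 17.3% in the flanks and 14.5% overall. Between digest A and RNase A it was 8 of 52 (15.4%), beside 21.4% and 15.1%. Between digest A and digest B it was 2 of 58 (3.45%), beside 2.74% over the whole lists, and between digest A and DRIPc-seq 1 of 34 (2.94%), beside 3.72% overall. Digest B and K562 had 3 of 30 (10%, 2.11 to 26.5%), beside 3.31% overall.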

How the data were processed

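Per the file headers and columns, the authors deposited lists of peak positions in base pairs (start, end and, for NT2 DRIPc-seq, strand), without a height or score. The human lists are on hg19, which the submitters' processing notes name beside the tools Bismark 0.7.7, TopHat2 2.0.5 and BWA 0.6.1, with no role for any. The peak caller, its threshold, any control library and the way of joining the 2 DRIPc-seq samples are unstated in the sources used here. Absence from a list means that no peak was called, and lists of unlike depth can differ for that reason.

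Cover was computed as the union of peaks clipped to each window. A peak counted as found in another list when touched by at least 1 bp, strand ignored. Shares carry exact Clopper-Pearson 95% intervals. A share of 0 is given with the limit that 3 counts of the total allow. With 1 list per group no p-value was computed. Background came from whole lists and from tiles of 300 and 130 kb. Regions were peaks of all lists merged where they overlapped or lay within 1 bp. The text names regions held by at least 4 lists, those held by RNase H, the longest of each cluster and the longest of a single list. The windows, regions and gene families were chosen with earlier results of these data known. Alternatives were flanks of 250 kb and 1 Mb, each cluster left out, the longest 50% of peaks, merging within 1 kb, assignment by midpoint, 50% cover for sharing and other NT2 lists.

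Promoters were the first RefSeq entry of each gene. Functions were tested on simulated lists: 35% of 4000 peaks planted as shared was recovered as 35%, and cover differed in 0 of 500 windows. Shared counts were checked against bedtools 2.31.1. Scripts ran on Python 3.11.15 with scipy 1.17.1, pandas 2.3.3, numpy 2.4.6 and matplotlib 3.10.9. The mouse lists, RNA-seq and MethylC-seq samples were not used here.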

Additional observations from a re-analysis of the deposited data

How the results depend on the processing

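Over 24 results, 103 alternatives were computed. Of these, 81 kept the direction and stayed within a factor of 1.5 of the reported value, 17 moved further and 5 changed sign. The 81 include RNase H counts and shares of 0, which merging peaks or leaving peaks out could not change. Cover of the clusters minus that of the flanks was small in digest A and digest B (0.594 and 0.614 percentage points) and changed sign with flanks of 250 kb (-0.296 and -0.513) and without the chromosome 1 cluster (-1.24 and -3.28). In digest A it also changed sign with the longest 50% of peaks (-0.669), where digest B had 0.267 and RNase A 3.55. With flanks of 1 Mb it was 1.04 and 1.83. Without the 26 Mb cluster it was 4.27 in digest A, 6.30 in digest B, 11.0 with RNase A and -4.89 in DRIPc-seq; without the 27 Mb cluster it was 1.72 in digest B. For RNase H, whose peaks lay only in the chromosome 1 flanks, it was -0.526, and 0 without chromosome 1. Keeping the longest 50% of each list left 14 cluster peaks in digest A, 11 in digest B, 14 with RNase A, 8 in DRIPc-seq and 37 in K562. With at least 50% of the peak required to be covered, 29.4% of digest A peaks were found in DRIPc-seq. The ratio of K562 to NT2 cover in the chromosome 6 clusters, 3.23 against digest A, was 1.43 against the joined NT2 lists, an alternative added after the data were seen. Read depth is unknown, the cause of these changes was not tested, and each cluster holds few peaks.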
